A study of Mus musculus with 12 samples.

Results

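Neto1 and Rttn, with their neighbours Cbln2, Socs6, Cd226 and Dok6, are protein-coding genes near the distal end of mouse chromosome 18. Neto1 and Rttn were chosen by their difference between the BALB/cJ and BALB/cByJ colonies in these same arrays, and the other genes were added because they lie beside them. Of the 6 genes, 5 had probe sets that name that gene alone, 11 in all among the 45037 probe sets tested: 3 for Neto1, 3 for Rttn, 3 for Socs6, 1 for Cbln2 and 1 for Cd226. Dok6 had no such probe set and is not analysed here. Because the colony differences of these genes guided the choice, they are given below as a description, and how many of them passed the threshold of the fit over all probe sets is printed as a count that supports nothing. Immunization, which played no part in the choice, was tested.

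RNA was taken from spleens of 12 female BALB/c mice, 3 separate animals in each of 4 groups: the naïve and the immunized mice of the BALB/cJ colony, and those of the BALB/cByJ colony. BALB/cJ and BALB/cByJ are closely related inbred substrains kept as separate colonies. Immunized mice of both colonies had a single intraperitoneal injection of 100 µg cartilage proteoglycan (PG) protein with 2 mg of the adjuvant dimethyldioctadecylammonium bromide (DDA), and their spleens were removed on day 12. Naïve mice had neither PG nor DDA, so antigen and adjuvant cannot be told apart, and the ages of the mice are not in the labels. The naïve and immunized mice also carry separate ranges of sample numbers. The labels do not say what these ranges stand for, and immunization cannot be told apart from them. Each value is a log2 signal from which the median of that probe set over the 12 arrays had been subtracted, so 0 stands for the middle array, and neither the brightness of a probe set nor the order of levels between genes is known. For the same reason it cannot be read from these values which genes of the spleen, such as the B cell genes, were strongly expressed. Some arrays stood apart in genes of other cells. Pigment cell genes were high in 4 arrays, naïve BALB/cJ replicates 1 and 2, immunized BALB/cJ replicate 1 and immunized BALB/cByJ replicate 2, where Dct, a melanocyte enzyme gene, was 4.72 to 6.29 above its median array. These are the arrays with Dct above 3. Naïve BALB/cJ replicate 3 was below that cut but also raised, with Dct at 2.27. Erythroid genes were lower in naïve BALB/cJ than in naïve BALB/cByJ arrays. The median of the 8 pancreatic enzyme genes ran from 0.18 to 2.30 in naïve BALB/cByJ arrays and was at most 0.09 in the others. In bulk spleen, fewer cells of a type and less RNA per cell cannot be told apart.

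Neto1 (neuropilin and tolloid-like 1) encodes a transmembrane protein with CUB domains that associates with kainate-type and NMDA-type glutamate receptors in neurons and modulates the kainate receptors' gating. Rttn encodes rotatin, a protein of the centriole, where it takes part in building the new centriole before cell division, and it is also needed for left-right patterning of the embryo. Cbln2 encodes cerebellin-2, a secreted organizer of synapses that binds neurexins. Socs6 encodes a suppressor of cytokine signalling with an SH2 domain and a SOCS box. Cd226 encodes DNAM-1, an activating receptor of natural killer (NK) and T cells for the ligands CD155 and CD112. Dok6 encodes a docking protein for receptor tyrosine kinases such as Ret.

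All 3 Neto1 probe sets were higher in spleens of BALB/cByJ than of BALB/cJ mice, in naïve and in immunized mice. On Neto1 1456283_at the naïve BALB/cJ arrays read -1.55, -1.34 and -1.31 and the naïve BALB/cByJ arrays 1.50, 1.32 and 1.56 on the centred log2 scale. The immunized BALB/cJ arrays read -1.35, -1.48 and -1.61 on this probe set, and the immunized BALB/cByJ arrays 1.37, 1.38 and 1.31. The 6 BALB/cByJ arrays thus lay together far above the 6 BALB/cJ arrays, whatever the immunization. The log2 difference, BALB/cByJ minus BALB/cJ, was 2.86 (SE 0.095, n = 3 per group) in naïve mice and 2.84 (SE 0.095) in immunized mice, which are signals 7.27-fold and 7.15-fold higher. These differences were 25.5 and 25.2 times the SD between mice of a group, which was 0.112. By absolute size they held rank 12 among the 45037 probe sets in naïve mice and rank 7 in immunized mice.

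On Neto1 1441815_at the naïve BALB/cJ arrays read -0.92, -1.21 and -1.23 and the naïve BALB/cByJ arrays 1.45, 1.01 and 1.22. In immunized mice the values were -0.97, -1.26 and -0.88 in BALB/cJ and 1.20, 0.95 and 0.88 in BALB/cByJ. No array of one colony reached the range of the other. The log2 difference was 2.34 (SE 0.14) in naïve mice, a signal 5.08-fold higher in BALB/cByJ, and 2.04 (SE 0.14) in immunized mice, 4.12-fold higher. On Neto1 1425132_at the difference was smaller, with naïve arrays at -0.39, -0.57 and -0.18 in BALB/cJ and at 0.78, 0.51 and 0.79 in BALB/cByJ. The immunized arrays read -0.45, -0.43 and -0.52 in BALB/cJ and 0.56, 0.44 and 0.18 in BALB/cByJ on this probe set. The groups again did not overlap, and the log2 differences were 1.07 (SE 0.12) and 0.86 (SE 0.12) in naïve and immunized mice. The lowest BALB/cByJ array on 1425132_at was immunized replicate 3, and the highest BALB/cJ array was naïve replicate 3. The naïve difference thus ran from 1.07 to 2.86 over the 3 probe sets of this 1 gene, and since each probe set is centred on its own, it is not known which of them is the brightest.

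Rttn moved in the same direction with a much smaller difference. On Rttn 1436588_at the naïve BALB/cJ arrays read -0.21, -0.20 and -0.17 and the naïve BALB/cByJ arrays 0.31, 0.26 and 0.17. The immunized arrays read -0.31, -0.17 and -0.30 in BALB/cJ and 0.27, 0.18 and 0.22 in BALB/cByJ. All 6 BALB/cByJ arrays were above 0 and all 6 BALB/cJ arrays below it. The log2 difference was 0.44 (SE 0.071) in naïve mice, 1.36-fold, and 0.48 (SE 0.071) in immunized mice, 1.40-fold.

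On Rttn 1460110_at the naïve arrays read -0.04, -0.16 and -0.14 in BALB/cJ and 0.04, 0.19 and 0.06 in BALB/cByJ, and the immunized arrays -0.12, -0.17 and -0.04 in BALB/cJ and 0.25, 0.13 and 0.40 in BALB/cByJ. The colonies did not overlap in either state, with log2 differences of 0.21 (SE 0.085) and 0.37 (SE 0.085), but the gap between the nearest naïve arrays was small. On Rttn 1431919_at the colonies overlapped in both states, with log2 differences of 0.22 (SE 0.11) in naïve and 0.16 (SE 0.11) in immunized mice. All 3 Rttn probe sets thus had a positive difference in both states, and 1 of them, 1436588_at, differed by 7.71 and 8.44 times the SD between mice of a group.

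**Figure D1:**
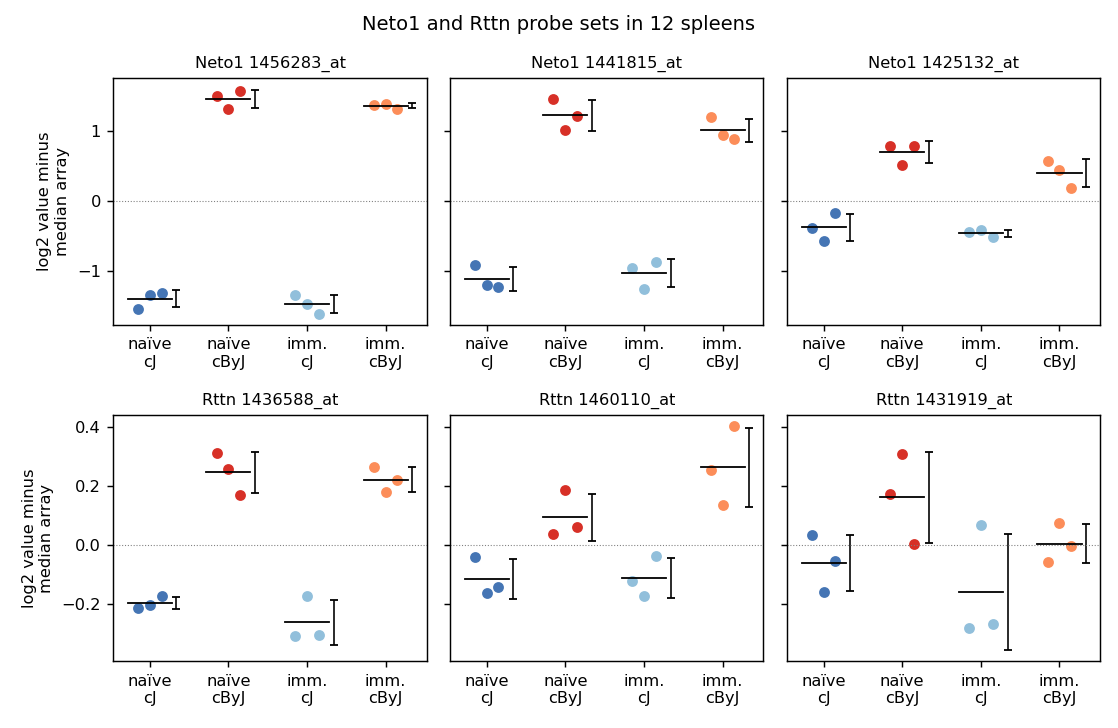
Values of the 3 Neto1 probe sets (top) and the 3 Rttn probe sets (bottom) in each of 12 spleens, as log2 signal minus the probe set's median over the arrays. The 2 rows have different vertical scales, points are mice, horizontal bars are group means, vertical bars are the SD of the group (n = 3), and imm. stands for immunized. The colonies separate in both states on every Neto1 probe set, by 2.86 and 2.84 on 1456283_at, and on Rttn 1436588_at by 0.44 and 0.48.

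Across the 11 probe sets, 4 passed an adjusted p under 0.05 in the naïve comparison of the colonies, where 4.39% of all probe sets did, and the same 4 passed it in immunized mice, where 0.12% did. They were the 3 Neto1 probe sets and Rttn 1436588_at, all higher in BALB/cByJ. Over all probe sets, 46 (0.102%) passed in both states with the same sign. The arrays of the colonies did not overlap for 5 of the 11 in naïve mice, against 21.7% of all probe sets, and for the same 5 in immunized mice, against 15%. The fifth was Rttn 1460110_at. Nothing is read from these shares, since the colony difference chose the genes.

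Cbln2, which follows Neto1 on the chromosome, showed no such separation. On Cbln2 1434779_at the naïve arrays read -0.15, 0.00 and 0.05 in BALB/cJ and -0.07, 0.18 and -0.04 in BALB/cByJ, and the immunized arrays stayed between -0.14 and 0.05 in both colonies. The colonies overlapped in both states. The log2 difference was 0.06 (SE 0.086) in naïve mice and -0.08 (SE 0.086) in immunized mice, so the sign was not the same and both values were below their SE.

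Socs6, between Cbln2 and Rttn, had negative differences on all 3 probe sets, and its values spread widely among BALB/cJ mice. On Socs6 1452764_at the naïve BALB/cJ arrays read 0.56, 0.03 and -0.22 and the immunized BALB/cJ arrays 0.67, -0.03 and 0.11. BALB/cByJ arrays ran from -0.34 to 0.08 on this probe set, so the colonies overlapped in both states, as they did on the other Socs6 probe sets. The log2 difference was -0.30 (SE 0.20) in naïve and -0.34 (SE 0.20) in immunized mice. On 1435492_at it was -0.18 and -0.20 (SE 0.19 each), and on 1450129_a_at -0.27 and -0.15 (SE 0.12 each). Replicate 1 of each BALB/cJ group read highest of its group on all 3 Socs6 probe sets. These 2 arrays are among the 4 with high pigment cell genes, with Dct at 6.29 and 5.69, but naïve BALB/cJ replicate 2 had Dct at 6.26 and Socs6 1452764_at at 0.03. The part of pigment cells in the Socs6 values was not tested.

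Cd226, on the other side of Rttn, read 0.26, 0.02 and -0.22 in naïve BALB/cJ and -0.13, 0.01 and -0.19 in naïve BALB/cByJ on its only probe set, 1445388_at. The immunized arrays read 0.24, 0.09 and -0.01 in BALB/cJ and 0.07, -0.13 and -0.05 in BALB/cByJ. The colonies overlapped in both states, and the log2 differences were -0.12 (SE 0.12) and -0.14 (SE 0.12). Cd226 is made by NK and T cells, and the 9 NK cell genes measured had array medians of 0.03 to 0.40 in naïve BALB/cJ and -0.28 to 0.05 in naïve BALB/cByJ. In immunized mice those medians ran from -0.02 to 0.12 in BALB/cJ and from -0.32 to -0.20 in BALB/cByJ. Of the 11 NK cell probe sets, 1 passed in naïve mice, against 4.39% of all probe sets. It was Prf1 (perforin, the pore-forming protein of cytotoxic cells), at -0.56 (limma adjusted p = 0.027). In immunized mice none of the 11 passed by limma, though 8 had an unadjusted p under 0.05, against 7.92% of all probe sets. The 10 T cell genes had no call between the colonies by limma, with 2 of their 21 probe sets at an unadjusted p under 0.05 in each state. Of all probe sets, 18.7% were under it in naïve and 7.92% in immunized mice. The part of NK cell number in the Cd226 values was not tested.

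**Figure D2:**
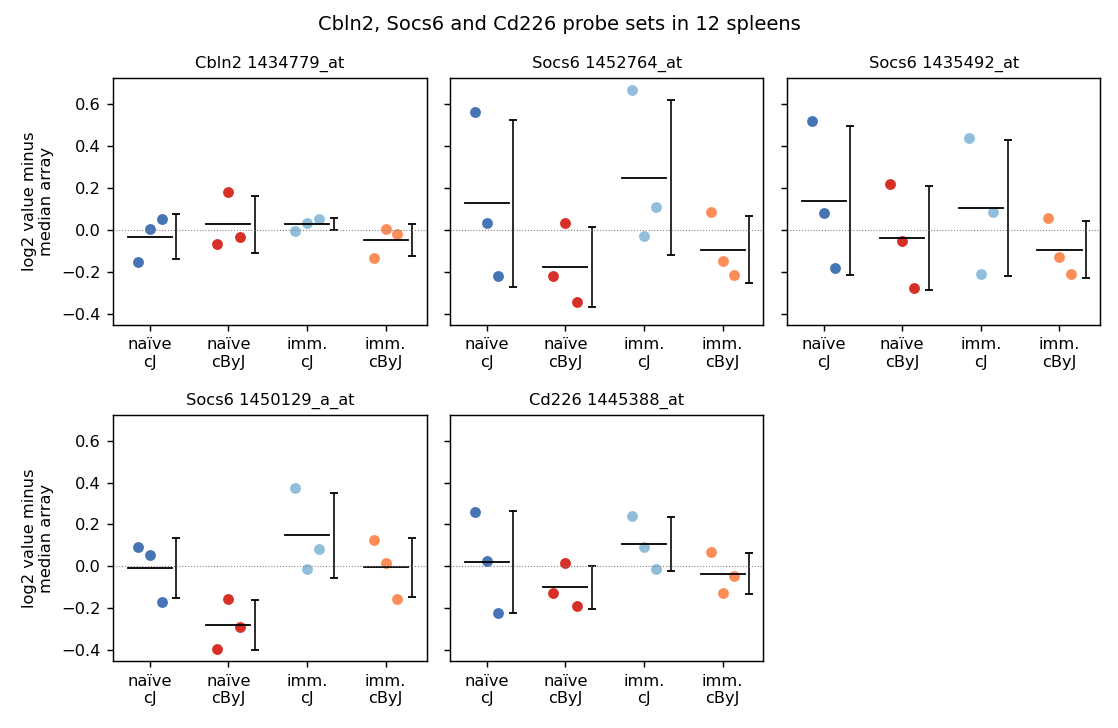
Values of the Cbln2, Socs6 and Cd226 probe sets in each of 12 spleens, as log2 signal minus the probe set's median over the arrays, all on 1 vertical scale. Points are mice, horizontal bars group means and vertical bars the SD (n = 3), and imm. stands for immunized. The colonies overlap in both states on Cbln2, on Cd226 and on all 3 Socs6 probe sets, and the highest Socs6 points, 0.56 and 0.67 on 1452764_at, belong to replicate 1 of each BALB/cJ group.

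The order of genes was taken from RefSeq's table for GRCm38.p6. Toward the end of the chromosome it runs Timm21, Neto1, Cbln2, Socs6, Rttn, Cd226, Dok6, Tmx3 and Gm45871. The measured gene next to Neto1 on its other side, Timm21, a subunit linked to the mitochondrial import machinery, had log2 differences of -0.14 in naïve and -0.03 in immunized mice. Neto1 and Rttn are not next to each other, and the genes between them, Cbln2 and Socs6, did not share their direction in immunized mice, where their 4 probe sets were between -0.34 and -0.08. Among 12 further protein-coding genes, 10 before Neto1 and 2 after Dok6, 9 were measured by 15 probe sets. None of the 15 passed an adjusted p under 0.05 in limma's fit in either state. Of all probe sets, 4.39% passed in naïve and 0.12% in immunized mice, so little can be read from 15. Their differences ran from -0.28 to 0.05 in naïve and from -0.33 to 0.12 in immunized mice. The arrays of the colonies did not overlap for 3 of the 15 in naïve mice, against 21.7% of all probe sets, and for 1 in immunized mice, against 15%. That 1 was 1419925_s_at of Tmx3, the gene of a thioredoxin-related protein of the endoplasmic reticulum. Its difference was -0.28 in naïve (limma adjusted p = 0.138) and -0.23 in immunized mice (limma adjusted p = 0.602). On the other Tmx3 probe sets the colonies overlapped in both states. Their naïve and immunized differences were 0.05 and 0.04 on 1419926_at, -0.15 and -0.05 on 1430995_at, and -0.09 and -0.01 on 1440279_at.

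Over the whole of chromosome 18, 967 probe sets name a single gene, and 58 of them (6%) passed in naïve mice, against 4.39% of all probe sets. The 4.39% also counts probe sets that name several genes or none. Counted over single-gene probe sets, the share per chromosome ran from 3.93% (chromosome 15) to 6.21% (chromosome 8). In immunized mice 4 on chromosome 18 passed, where 0.12% of all did, and these were the 3 Neto1 probe sets and Rttn 1436588_at. Chromosomes 2 and 17 each held 9 calls in immunized mice. Nothing is read from the 4, since the colony difference chose Neto1 and Rttn.

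**Figure D3:**
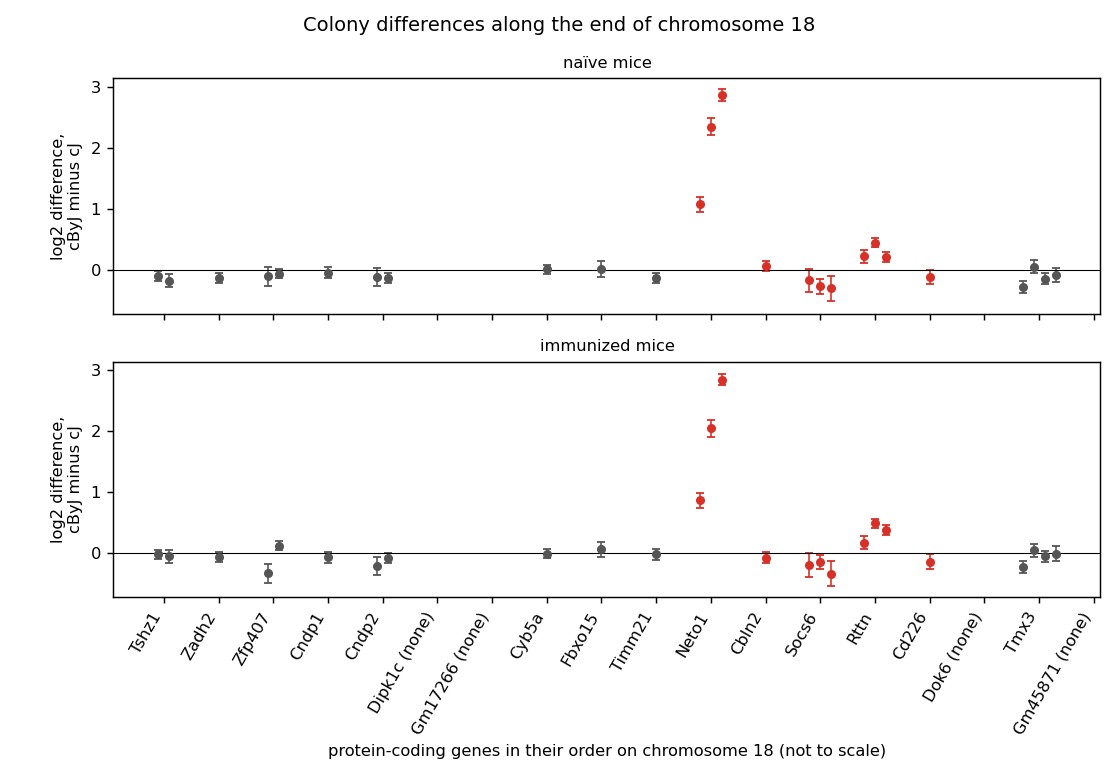
Log2 difference between the colonies, BALB/cByJ minus BALB/cJ, for each probe set of the 18 protein-coding genes at the end of chromosome 18, in naïve (top) and immunized mice (bottom). Genes are set in their order and not to scale, error bars are SE (n = 3 per group), red marks Neto1, Cbln2, Socs6, Rttn and Cd226, and "(none)" marks genes without a probe set of their own. Neto1 stands at 0.86 to 2.86 over its probe sets and states and Rttn 1436588_at at 0.44 and 0.48, while the 15 grey probe sets lie between -0.33 and 0.12.

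The pattern of Neto1 over the 12 arrays was set beside that of every other probe set by the root mean square (RMS) difference of the centred values from Neto1 1456283_at, a measure in log2 units that is 0 for identical patterns and had a median of 1.44 over all probe sets. The nearest was the other large Neto1 probe set, 1441815_at, at 0.386. Next came Zhx2 1455210_at at 0.478, a transcriptional repressor gene, then 1418809_at, which names Pirb, Pira2 and Pira1, at 0.618, and Glo1 1436070_at at 0.635, the gene of glyoxalase 1. They were followed by 1458719_at, unnamed here, at 0.671, and a further Glo1 probe set, 1451240_a_at, at 0.688. With the sign turned, the nearest were Arl2bp 1429859_a_at at 0.152 and Arl2bp 1417112_at at 0.253, so Arl2bp, a binding partner of the small GTPase Arl2, was about as far above its middle array in BALB/cJ as Neto1 was in BALB/cByJ. The probe sets 1431008_at and 1451644_a_at, which name several H2-Q genes of MHC class I, followed at 0.318 and 0.386. Likeness here is a description over 12 arrays that share 4 groups. Neto1 1425132_at held rank 31 on this measure and Rttn 1436588_at, whose difference is far smaller, rank 786 with an RMS difference of 1.20.

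Immunization with PG in DDA was tested within each colony. In BALB/cJ none of the 11 probe sets passed, where 0 of all 45037 did (0%), and none had an unadjusted p under 0.05, against 4137 of all. Their log2 differences, immunized minus naïve, ran from -0.10 to 0.16, with limma adjusted p values from 0.738 to 0.995. No probe set had arrays that did not overlap between naïve and immunized BALB/cJ, against 17% of all. Neto1 1456283_at differed by -0.08 in this comparison (95% confidence interval -0.29 to 0.13). After quantile normalization of the deposited values the difference was -0.42 (limma adjusted p = 0.66), outside that interval. Neto1 1441815_at differed by 0.08, Neto1 1425132_at by -0.09 and Rttn 1436588_at by -0.07.

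In BALB/cByJ none of the 11 probe sets passed, against 0.0511% of all (23 probe sets). Neto1 1456283_at differed by -0.11 (95% confidence interval -0.31 to 0.10), Neto1 1441815_at by -0.22 and Rttn 1436588_at by -0.02. An unadjusted p under 0.05 was found for 2 of the 11, against 3738 of all. One was Neto1 1425132_at, at -0.30 (SE 0.12; limma adjusted p = 0.571), with naïve arrays at 0.78, 0.51 and 0.79 and immunized arrays at 0.56, 0.44 and 0.18. The other was Socs6 1450129_a_at, at 0.28 (SE 0.12; limma adjusted p = 0.58), with naïve arrays at -0.39, -0.16 and -0.29 and immunized arrays at 0.13, 0.01 and -0.15. The naïve and immunized arrays overlapped on Neto1 1425132_at, and its difference was -0.055 after quantile normalization and -0.19 without immunized BALB/cByJ replicate 3. On Socs6 1450129_a_at they did not, the 1 such case of the 11, against 12.1% of all probe sets. The colony comparisons and the immunization comparisons share arrays, so these naïve BALB/cByJ values enter both.

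The response in BALB/cByJ minus the response in BALB/cJ, which asks whether the colonies responded differently, passed for none of the 11 probe sets, none had an unadjusted p under 0.05, and 0% of all probe sets passed (0 by limma, 3417 with an unadjusted p under 0.05). The values of the 11 ran from -0.30 to 0.16, and their 95% confidence intervals together spanned -0.73 to 0.59. For Neto1 1456283_at the difference of responses was -0.02 (95% confidence interval -0.32 to 0.27), for Neto1 1441815_at -0.30, for Neto1 1425132_at -0.21 and for Rttn 1436588_at 0.04 (95% confidence interval -0.18 to 0.26). With 3 mice per group, differences of responses within the interval of a probe set cannot be told apart for that probe set.

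**Figure D4:**
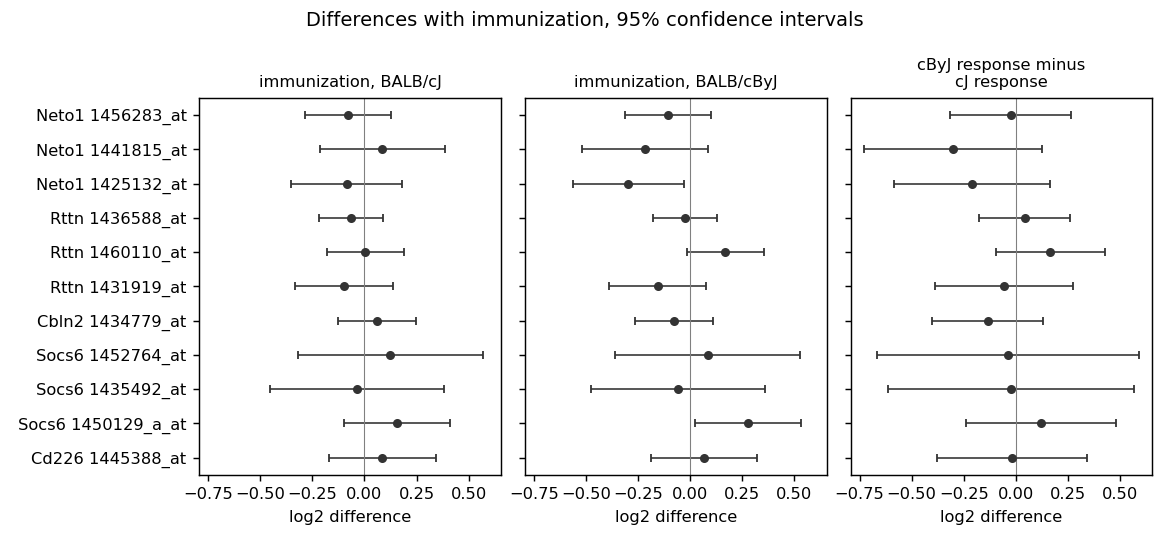
Log2 difference with immunization in BALB/cJ (left) and in BALB/cByJ (middle), immunized minus naïve, and the BALB/cByJ response minus the BALB/cJ response (right), for the 11 probe sets. Points are estimates of limma's fit and bars their 95% confidence intervals. The interval excludes 0 for Neto1 1425132_at (-0.30) and Socs6 1450129_a_at (0.28) in BALB/cByJ, neither of which passed the adjusted p, and for no probe set in BALB/cJ or in the difference of responses.

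The immunized mice fell into a lower and a higher range of sample numbers that each held both colonies, so the colony difference could be read within each range. On Neto1 1456283_at it was 2.73 in the lower range (2 BALB/cByJ mice and 1 BALB/cJ) and 2.86 in the higher (1 and 2 mice). On Neto1 1441815_at it was 2.04 and 1.95, on Neto1 1425132_at 0.959 and 0.651, and on Rttn 1436588_at 0.529 and 0.461. BALB/cByJ was higher in both ranges on each. Neto1 and Rttn were chosen by the colony difference in these same arrays, so nothing is read from this. The other probe sets of Rttn and those of Cbln2, Socs6 and Cd226 also had the same sign in both ranges. Rttn 1460110_at differed by 0.32 and 0.51 and Rttn 1431919_at by 0.29 and 0.10. Negative in both were Cbln2 1434779_at (-0.06 and -0.06), Cd226 1445388_at (-0.27 and -0.09) and Socs6 1452764_at (-0.70 and -0.26). So were Socs6 1435492_at (-0.47 and -0.15) and Socs6 1450129_a_at (-0.30 and -0.19). With the range as a block, the difference was 0.80 on Neto1 1425132_at and 0.49 on Rttn 1436588_at.

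The genes whose products work with these proteins were looked at as lists. Of the Neto1 partners, the auxiliary protein gene Neto2 and the kainate, NMDA and AMPA receptor subunits, 16 genes had 33 probe sets, and none passed in any of the 5 comparisons by limma, with 4 of the 33 at an unadjusted p under 0.05 in naïve and 1 in immunized mice, against 18.7% and 7.92% of all probe sets. Their median difference between the colonies was 0.06 in naïve mice, beside -0.01 over all probe sets, and the largest difference was that of the AMPA receptor subunit gene Gria2 (-0.52, limma adjusted p = 0.232). The kainate receptor subunit gene Grik5 had the largest in immunized mice (0.30, limma adjusted p = 0.534). The neuron list, 11 genes that mark nerve cells, had no call between the colonies either, with array medians from -0.12 to 0.05. Of all probe sets, 4.39% passed between the colonies in naïve and 0.12% in immunized mice. With immunization 0% passed in BALB/cJ, 0.0511% in BALB/cByJ and 0% in the difference of responses. Nothing is read from the absence of calls in lists of this size. Whether those genes were expressed in spleen at all is not known from centred values.

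Of the Rttn partners in centriole assembly, 20 genes with 34 probe sets, 5 probe sets of 3 genes passed as higher in naïve BALB/cByJ and none passed as lower. In naïve mice 4.39% of all probe sets passed. Stil 1427707_a_at, whose product recruits the cartwheel protein of the new centriole, differed by 1.59 (SE 0.25, limma adjusted p = 0.0083). The 3 probe sets of Plk4, the kinase that starts centriole duplication, differed by 0.89, 0.76 and 0.89 (limma adjusted p = 0.0099, 0.021 and 0.014). Sass6 1448016_at, the gene of the cartwheel protein, differed by 0.64 (limma adjusted p = 0.025). The 34 ran from -0.18 to 1.59 with a median of 0.09, and 12 had an unadjusted p under 0.05, against 18.7% of all probe sets. In immunized mice none of the 34 passed by limma, where 0.12% of all probe sets did. There 5 of the 34 had an unadjusted p under 0.05, against 7.92% of all probe sets, and Stil differed by 0.66 (limma adjusted p = 0.582). Whether the naïve and immunized values differ was tested as the difference of responses. It passed for none of the 34 and for 0% of all probe sets. Of the 34, 7 had an unadjusted p under 0.05 in it, against 7.59% of all probe sets.

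Erythroid genes also differed between the naïve colonies. All 13 erythroid probe sets had a positive difference, of which 8 passed, against 4.39% of all probe sets. The medians of the 9 erythroid genes ran from -1.30 to -0.34 in naïve BALB/cJ arrays and from 0.13 to 0.63 in naïve BALB/cByJ arrays. With the mean of the erythroid genes as a covariate, none of the 34 centriole probe sets passed and Stil differed by 0.56 (limma adjusted p = 0.401). Calls over all probe sets fell from 1976 to 26 with this covariate. The erythroid medians did not overlap between the naïve colonies, so colony and erythroid genes cannot be told apart there. The part of erythroid cells in the centriole values was not tested further. Leaving out the 4 arrays rich in pigment cell genes kept only replicate 3 (Dct at 2.27) of the naïve BALB/cJ group, so calls are not counted there. Stil differed by 1.07 in that fit. By the methods' analysis of variance none of the 34 passed. Without naïve BALB/cJ replicate 2 none passed, without naïve BALB/cByJ replicate 3 1 did, and without naïve BALB/cJ replicate 1 2 did. Rttn 1436588_at, whose gene was chosen by its colony difference, did not pass with the erythroid covariate either. It differed by 0.41 with that covariate and by 0.42 without the pigment arrays, beside 0.44 in all arrays.

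Of the cerebellins and their receptors, 6 genes with 15 probe sets, none passed by limma in any comparison, with 3 at an unadjusted p under 0.05 in naïve and 2 in immunized mice. The shares of all probe sets under it were 18.7% and 7.92%, and the shares that passed were 4.39% and 0.12%. Cbln1 1423287_at had the largest difference, 0.79 in naïve mice (limma adjusted p = 0.18) and 0.90 in immunized mice (adjusted p = 0.528). Its naïve BALB/cByJ arrays read 1.40, 0.40 and 0.26, all above the naïve BALB/cJ arrays. Of the SOCS box family, 7 genes with 21 probe sets, none passed by limma, with 6 at an unadjusted p under 0.05 in naïve and 1 in immunized mice, against the same 18.7% and 7.92%. Socs5 was nearest in naïve mice (-0.48, limma adjusted p = 0.064). In immunized mice the feedback inhibitor gene Socs3 had the largest difference (0.26, limma adjusted p = 0.627).

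Of the genes around Cd226, its paired receptors, ligands and adhesion partners, 12 genes with 32 probe sets, 1 probe set passed in naïve mice, against 4.39% of all. It was Nectin3 1421133_at, an adhesion molecule gene, which was lower in BALB/cByJ by -0.30 (SE 0.077, limma adjusted p = 0.0493), just inside the threshold. The call ended under 18 of 21 alternatives, with a limma adjusted p of 0.138 from the naïve arrays alone. The median of the 32 was -0.20 in naïve mice, with 16 at an unadjusted p under 0.05, against 18.7% of all probe sets. The stroma and endothelium genes were lower in the same comparison, with a median of -0.55 over 14 probe sets. Of the 14, 12 had an unadjusted p under 0.05 and 3 were called, against 18.7% and 4.39% of all probe sets. The array medians of its 8 genes ran from 0.09 to 0.28 in naïve BALB/cJ and from -0.42 to -0.28 in naïve BALB/cByJ. The B cell genes were lower too, with a median of -0.24 over 12 probe sets, 7 at an unadjusted p under 0.05 and 1 called. Their array medians ran from 0.04 to 0.17 in naïve BALB/cJ and from -0.12 to -0.02 in naïve BALB/cByJ. The part of stroma and endothelium or of B cells in the values around Cd226 was not tested. None of the 32 around Cd226 passed in immunized mice by limma, where the adaptor gene Grb2 had the largest difference (0.28, limma adjusted p = 0.511). The list drawn up around the DOK family had 7 measured genes with 9 probe sets, and Dok6 was not among them. None passed by limma in either state, where 4.39% (naïve) and 0.12% (immunized) of all probe sets did. Dok3 had the largest difference in naïve mice (-0.17, limma adjusted p = 0.341). No probe set of these 6 lists passed with immunization in either colony or in the difference of responses by limma. Of all probe sets, 0% passed in BALB/cJ, 0.0511% in BALB/cByJ and 0% in the difference of responses, so nothing is read from this. An unadjusted p under 0.05 with immunization was found in BALB/cJ for 2 of the 32 around Cd226, 7 of the 34 of centriole assembly and 4 of the 21 of the SOCS family, against 9.19% of all probe sets. In BALB/cByJ it was found for 9, 4 and 1 of them, against 8.3%.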

How the data were processed

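RNA of 12 spleens, 3 mice per group, was hybridized to single-colour Affymetrix mouse genome arrays, whose number limits the precision. The authors made the deposited log2 values in GeneSpring GX 10.0 by quantile normalization and median polish within robust multi-array averaging, then subtracted from each probe set the median of all arrays. The methods name a logarithmic scale without its base, which was taken as log2. No 2 arrays were identical. Since no signal level remains, dim probe sets could not be filtered, and differences of dim or saturated probe sets may be understated.

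After removal of 64 control probe sets, 45037 entered 1 fit of group means over all arrays (R 4.3.3, limma 3.58.1, lmFit and eBayes), with p values adjusted after Benjamini and Hochberg across the 45037. An adjusted p under 0.05 was called. Gene names came from the platform's annotation, and gene order from RefSeq's GRCm38.p6 table. Groups came from the labels. Replicate numbers did not pair the animals. The fit was tested on simulated data.

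The genes and the lists were chosen with earlier results of these data known. The text names every probe set of these genes, up to 4 called genes of a list by smallest p or else the gene with the largest difference, the called or nearest measured neighbours (Tmx3 was named after its values were seen), and the 6 probe sets most like Neto1 with 4 more with the sign turned. The T cell, B cell, megakaryocyte, neuron, adipose and pigment lists held 0, 1, 0, 0, 0 and 0 calls between naïve colonies, and the NK cell, erythroid, pancreas and stroma lists 1, 8, 2 and 3. Between naïve colonies 4.39% of all probe sets were called. None of these 10 marker lists held a call with immunization. Alternatives were the methods' one-way analysis of variance with Student-Newman-Keuls comparisons, quantile or median normalization, a trended robust variance, array weights, the compared groups alone, replicate number or range of sample numbers as a block, probe sets ending in _s_at, _x_at or _a_at left out, the level of genes, and each array left out. Added after seeing the data were the erythroid mean as a covariate and leaving out the 4 arrays with high pigment cell genes (Dct above 3).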

Additional observations from a re-analysis of the deposited data

How the results depend on the processing

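These arrays chose Neto1 and Rttn, so how often their colony differences passed on refitting is a description and no support. Those of Neto1 1456283_at and 1441815_at passed in every alternative run, from 2.74 to 3.03 and from 2.23 to 2.69 in naïve mice and from 2.77 to 3.19 and from 1.93 to 2.36 in immunized mice. Neto1 1425132_at (0.87 to 1.17 in naïve, 0.78 to 1.12 in immunized mice) and Rttn 1436588_at (0.40 to 0.48 and 0.46 to 0.57) kept their sign in all and passed in 19 and 18 of 21 alternatives in naïve mice and in 15 and 14 of 22 in immunized mice. With 1 array left out, 2 to 4 of the 11 probe sets passed in immunized mice. Rttn 1436588_at missed without naïve BALB/cJ replicate 2 in naïve mice, and in immunized mice without any of the immunized arrays other than BALB/cJ replicate 2. Neto1 1425132_at missed in immunized mice without any of them other than BALB/cByJ replicate 3. In place of 4, 2 passed in naïve mice under the erythroid covariate, and in immunized mice 2 with the sample-number range as a block and 2 without the pigment arrays. Without the pigment arrays only replicate 3 of the naïve BALB/cJ group was left, so no count is given for naïve mice. At the level of genes, 2 passed in naïve mice (Neto1 and Rttn) and 1 in immunized mice (Neto1). By the methods' analysis of variance the same 4 probe sets passed in both states and none with immunization.

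Over all probe sets, the 1976 calls between naïve colonies became 67 by the analysis of variance, 1309 after quantile normalization, 5950 with array weights, 1262 with the compared groups alone, 26 with the erythroid covariate and 161 to 2470 with 1 array left out. The 54 in immunized mice became 88 after quantile normalization, 26 at the level of genes and 17 without the pigment arrays. The 0 in BALB/cJ with immunization became 28 by the analysis of variance, 651 with array weights and 0 to 3 with 1 array left out. The 23 in BALB/cByJ became 13 after median subtraction, 3 with a trended robust variance, 6 with the compared groups alone, 15 at the level of genes, 15 with the erythroid covariate, 7 without the pigment arrays, 6 to 35 with 1 array left out and 12 with the replicate block, under which the correlations of same-numbered arrays ran from -0.264 to 0.368. The 0 in the difference of responses became 2 after quantile normalization and 0 to 10 with 1 array left out. The causes were not tested.

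Immunization values near 0 changed sign without a call. After quantile normalization Neto1 1441815_at in BALB/cJ became -0.18 and Rttn 1436588_at in BALB/cByJ 0.0748 (-0.0618 to 0.00831 with 1 array left out), and the differences of responses of Neto1 1456283_at, 1441815_at and 1425132_at became 0.16, 0.064 and 0.22. That of 1456283_at was 0.0752 with array weights, 0.0667 with the erythroid covariate, 0.11 without the pigment arrays and -0.0966 to 0.0475 with 1 array left out. Neto1 1425132_at in BALB/cJ was 0.0299 with array weights and -0.18 to 0.0156 with 1 array left out. Other immunization values moved by over 1.5 times with their sign kept, among them after quantile normalization Neto1 1456283_at in BALB/cJ, from -0.08 to -0.42, and in BALB/cByJ, from -0.11 to -0.26, and Neto1 1425132_at in BALB/cJ, from -0.09 to -0.27, and in BALB/cByJ, from -0.30 to -0.055. The number of arrays limits all immunization values, whose intervals are given above.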
